A study of Mus musculus with 8 samples.

Results

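The tumour necrosis factor (TNF) superfamily comprises trimeric cytokines and the cysteine-rich receptors that bind them. Its genes were taken here as Tnf, Lta, Ltb, Fas and every gene whose name starts with Tnfsf or Tnfrsf and a number in the array annotation. This gave 34 of the 35019 gene names measured, 13 of them ligand genes and 21 receptor genes, covered by 44 of the 55681 probes. They were followed in mouse heart samples of the strain C57BL/6, with 2 arrays in each of 4 groups. Passage-8 cells were the 8th-passage derivatives of c-kit+/CD45+ cells grown out from explants of the left atrial appendage. CD45-negative cells were primary c-kit+/CD45- cells from such explants digested strongly, with 0.25% trypsin and 0.1% collagenase D. CD45-positive cells were primary c-kit+/CD45+ cells from explants digested weakly, with 0.05% trypsin and 0.1% collagenase D. The explants came from mice 8 to 12 weeks old, and the left-ventricle group held wall biopsies taken at 12 weeks. Digestion strength therefore cannot be told apart from the CD45 gate, nor tissue, culture and RNA reagent from the difference between cells and ventricle. Passage likewise cannot be told apart from the time since the sort on c-kit and CD45. The labels do not say whether the 2 samples of a group came from separate animals or cultures, and p-values then cover only the spread seen between them, which may be technical.

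Most TNF superfamily ligands are made as membrane proteins that can be cut to a soluble form, and most bind 1 or a few receptors. Receptors with a death domain can recruit caspases, and others bind TRAF adaptors directly. Receptors of both kinds can activate NF-kappaB, and decoy receptors bind ligand without signalling. In the heart and in macrophages the family is known for inflammatory signalling through TNF and its receptors, for RANK-dependent differentiation of myeloid cells into osteoclasts, and for co-stimulation of lymphocytes.

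Levels are given as log2 of the background-subtracted signal relative to the 75th percentile of the same array, so 0 is the level of that percentile. They compare shares of the signal, not amounts per cell, and levels of different genes rest on different probes and are not compared. A comparison took in the genes whose signal was well above background on each array of either group or of both. A gene passed when limma, fitted on all 8 arrays, gave a p under 0.05 after Benjamini-Hochberg adjustment over every gene tested, with a log2 difference of 1 or more in size. Words such as fell and rose describe differences between groups, not changes over time. Between 51.5% and 69.9% of the spots of an array were well above background. Ptprc, which encodes CD45, stood at -5.57 and -5.18 in passage-8 cells, -5.52 and -3.34 in CD45-negative cells, 2.04 and 1.93 in CD45-positive cells, with -2.33 and -2.89 in the left ventricle. CD45-positive cells were thus high and both other cell groups low. Of 10 macrophage markers on the array, 7, 9 and 10 were well above background on both arrays of passage-8, CD45-negative and CD45-positive cells. Adgre1, C1qa and C1qc were not well above background in passage-8 cells. The summed marker level was 2.81 to 2.84 in passage-8 cells, 1.98 to 5.33 in CD45-negative cells, 9.96 to 9.99 in CD45-positive cells and 5.32 to 5.65 in the left ventricle. All 7 fibroblast markers were well above background in every group, with a summed level of 9.99 to 10 in passage-8 cells, 10.47 to 10.61 in CD45-negative cells, 9.24 to 9.30 in CD45-positive cells and 8.05 to 8.68 in the left ventricle. The 2 CD45-negative arrays stood apart from each other: replicate 2 was higher than replicate 1 for the macrophage markers Csf1r (3.84 against 1.07) and Adgre1 (1.43 against -3.47) and for Kit (-1.55 against -6.34). Among the superfamily genes measured on both arrays of a group, the median gap between replicates was 0.90 in CD45-negative cells, against 0.08 in passage-8 cells, 0.20 in CD45-positive cells and 0.39 in the left ventricle. Over all genes so measured, the median gaps were 0.45, 0.09, 0.12 and 0.30 in the same order. Ptprc and Kit were well above background on CD45-negative replicate 2 and not on replicate 1. Whether replicate 2 held CD45-positive cells was not tested. Values of the CD45-negative group without one or the other array are given beside genes whose calls they change.

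Of the 34 genes, 29 entered at least 1 of the 6 comparisons, and 25 of these passed in at least 1. Lta, Tnfrsf17, Tnfrsf8, Tnfsf4 and Tnfsf8 entered none, and Tnfrsf8 and Tnfsf4 were not well above background on any of the 8 arrays. Tnfrsf12a, Tnfrsf13b, Tnfrsf13c and Tnfsf13b were tested and passed in none. The receptor genes were measured about equally often in the 3 cell groups: 17, 16 and 17 of 21 were well above background on both arrays of passage-8, CD45-negative and CD45-positive cells, and 17 of 21 in the left ventricle. Ligand genes were measured in 4 of 13 in passage-8 cells, 6 of 13 in CD45-negative cells, 9 of 13 in CD45-positive cells and 6 of 13 in the left ventricle. In that order these are 81%, 76.2%, 81% and 81% of receptor genes and 30.8%, 46.2%, 69.2% and 46.2% of ligand genes. They stand beside 64.6%, 54.6%, 60.9% and 62% of all 35019 genes. Among the 29 genes, the highest group mean fell in CD45-positive cells for 13, in CD45-negative cells for 8, in the left ventricle for 6 and in passage-8 cells for 2. CD45-positive cells were thus highest for 44.8% of these genes, beside 18.2% of all 24636 genes measured in at least 1 group. In bulk samples such as these, fewer cells of a type and less RNA per cell cannot be told apart.

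In passage-8 cells, 12 superfamily genes fell and 1 rose relative to primary CD45-positive cells, among 27 tested. Of the 9 ligand genes tested, 7 fell (Ltb, Tnf, Tnfsf11, Tnfsf12, Tnfsf14, Tnfsf15 and Tnfsf18) and none rose, and of the 18 receptor genes 5 fell (Tnfrsf11a, Tnfrsf1b, Tnfrsf21, Tnfrsf23 and Tnfrsf26) and Tnfrsf25 rose. Over all 23576 genes tested, 23.5% passed, 12.6% higher and 10.9% lower, and 48.1% of the superfamily genes tested did. Without CD45-positive replicate 1 the count was 7 genes, 1 higher and 6 lower. The median log2 difference was -2.21 for the ligand genes tested and -0.58 for the receptor genes, against 0.16 for all genes. Of the 12 that fell, 7 were well above background on at least 1 passage-8 array, Ltb on 1 of 2, and 5 were not well above background there. A gene dim in passage-8 cells could enter only through the CD45-positive arrays where it was bright, which favours a fall. The ligand count and median rest in part on this entry rule. Of the 4 ligand genes well above background on both arrays of both groups, Tnfsf12 and Tnfsf15 fell (-1.23 and -2.21). Tnfsf9 and Tnfsf13b did not pass (-0.04 and -0.15).

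CD45-negative cells differed from CD45-positive cells in both directions, with 3 superfamily genes higher (Tnfrsf10b, Tnfrsf18 and Tnfsf11) and 6 lower (Ltb, Tnf, Tnfrsf11a, Tnfrsf1b, Tnfrsf21 and Tnfsf14) among 26 tested. That is 34.6% of them, beside 21.8% of all 21640 genes tested, 11.2% higher and 10.5% lower. Of the 6 lower genes, 3 were not well above background in CD45-negative cells. Without CD45-negative replicate 2 the count was 2 higher and 7 lower, and without replicate 1 it was 5 higher and 6 lower. Without CD45-positive replicate 1 it was 4 genes, and without its replicate 2 it was 2 genes, both counts all lower.

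In passage-8 against CD45-negative cells 5 genes were lower (Tnfrsf23, Tnfrsf26, Tnfsf11, Tnfsf15 and Tnfsf18) and Tnfrsf25 was higher among 23 tested. These 26.1% stand beside 13.9% of all 22905 genes tested, 6.97% higher and 6.98% lower. Of the 5 lower genes, 2 were not well above background in passage-8 cells. The count was 11 genes without CD45-negative replicate 1, 9 without its replicate 2, and 3 without either of the passage-8 arrays. The comparisons that share a group share its arrays, so their counts are not independent of each other.

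**Figure D1:**
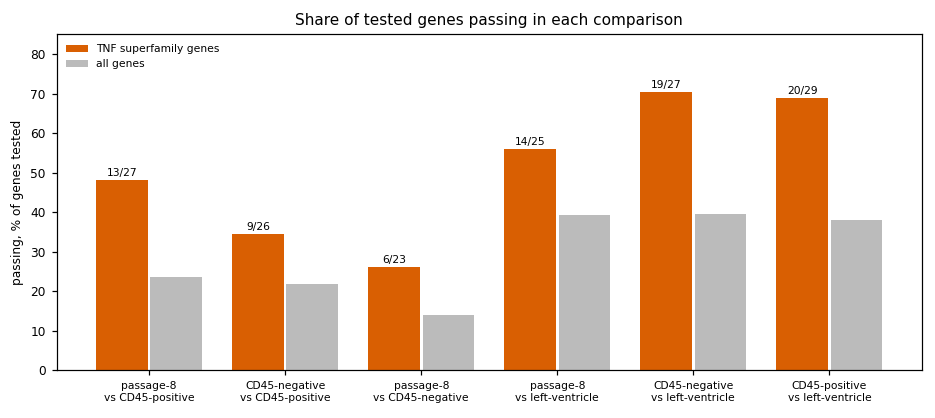
Share of the genes tested that passed (percent, vertical axis) in each of the 6 comparisons, for the TNF superfamily genes (orange bars, with the number passing over the number tested) and for all genes (grey bars). The orange bar is taller in each comparison, from 26.1% against 13.9% for passage-8 against CD45-negative cells to 70.4% against 39.5% for CD45-negative cells against the left ventricle.

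TNF and the lymphotoxins are encoded side by side. The probes of Ltb, Tnf and Lta lay within chr17:35333097-35340334 (build mm9), with 3.7 kb between Ltb and Tnf and 3.5 kb between Tnf and Lta. Tnf, the founding inflammatory cytokine of the family, had a log2 level of -7.64 and -6.82 in passage-8 cells, -6.69 and -4.35 in CD45-negative cells, -0.92 and -0.69 in CD45-positive cells, with -5.30 and -6.52 in the left ventricle. Only the CD45-positive arrays were well above background, and they did not overlap any other group. Tnf was at least 29.9-fold lower in passage-8 cells than in CD45-positive cells (adjusted p by limma, 0.00419) and at least 13.2-fold lower in CD45-negative cells (adjusted p = 0.0126). CD45-positive cells were at least 17.8-fold above the left ventricle (adjusted p = 0.00462). Ltb, which encodes the membrane-bound lymphotoxin beta, stood at -5.91 and -5.03 in passage-8 cells, -6.31 and -6.14 in CD45-negative cells, -3.10 and -3.21 in CD45-positive cells, with -1.91 and -2.52 in the left ventricle. Its signal exceeded background clearly on 1 passage-8 array, on no CD45-negative array and on all arrays of the other 2 groups, and the cell groups did not overlap. The fall in passage-8 against CD45-positive cells was -2.31 ± 0.37 (log2, SE; adjusted p = 0.00792). In CD45-negative cells Ltb was at least 2.75-fold below CD45-positive cells (adjusted p = 0.00455) and at least 5.29-fold below the left ventricle (adjusted p = 0.000626). Lta, which encodes the soluble lymphotoxin, was well above background on 1 passage-8 and 1 CD45-positive array and was not tested. The lower Tnf of CD45-negative cells missed the threshold without either CD45-positive array (adjusted p = 0.074 and 0.0906), and its bound was 14.9-fold without CD45-negative replicate 2 and 11.7-fold without replicate 1. The lower Ltb of passage-8 cells did so too (adjusted p = 0.0571 and 0.0550), and that of CD45-negative cells did so without CD45-positive replicate 2 (adjusted p = 0.0500). With normexp background correction, Ltb in CD45-negative cells did not pass against CD45-positive cells (adjusted p = 0.840) or the ventricle (adjusted p = 0.0974).

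The promoters of 4 of the ligand genes that fell in passage-8 against CD45-positive cells are shown as a selection. Each covers the bases around the annotated start, 300 in all and most of them upstream, from RefSeq in build GRCm38.p6: Tnf at chr17:35201958-35202257 on the minus strand, Ltb at chr17:35194257-35194556 on the plus strand, Tnfsf14 at chr17:57194132-57194431 on the minus strand and Tnfsf18 at chr1:161494407-161494706 on the plus strand. Capitals mark matches on either strand to the kappaB consensus, to the AP-1 motif TGANTCA or to the PU.1 core GAGGAAGT.
Tnf: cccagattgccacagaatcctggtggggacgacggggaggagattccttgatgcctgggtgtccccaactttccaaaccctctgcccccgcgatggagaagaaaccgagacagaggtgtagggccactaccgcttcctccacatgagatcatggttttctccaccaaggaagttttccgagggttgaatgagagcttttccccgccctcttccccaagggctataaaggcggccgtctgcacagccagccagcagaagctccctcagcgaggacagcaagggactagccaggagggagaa
Ltb: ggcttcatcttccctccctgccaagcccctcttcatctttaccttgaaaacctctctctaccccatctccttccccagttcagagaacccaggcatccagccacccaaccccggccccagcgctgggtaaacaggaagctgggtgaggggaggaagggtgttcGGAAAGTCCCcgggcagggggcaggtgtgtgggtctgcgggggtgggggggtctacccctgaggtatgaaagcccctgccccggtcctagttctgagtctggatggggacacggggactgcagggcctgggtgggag
Tnfsf14: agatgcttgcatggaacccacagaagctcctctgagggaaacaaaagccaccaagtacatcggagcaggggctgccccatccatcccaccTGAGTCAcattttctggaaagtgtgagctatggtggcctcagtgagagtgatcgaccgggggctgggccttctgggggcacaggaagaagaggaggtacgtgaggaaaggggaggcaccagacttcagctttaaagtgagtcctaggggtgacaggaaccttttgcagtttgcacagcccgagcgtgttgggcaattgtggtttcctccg
Tnfsf18: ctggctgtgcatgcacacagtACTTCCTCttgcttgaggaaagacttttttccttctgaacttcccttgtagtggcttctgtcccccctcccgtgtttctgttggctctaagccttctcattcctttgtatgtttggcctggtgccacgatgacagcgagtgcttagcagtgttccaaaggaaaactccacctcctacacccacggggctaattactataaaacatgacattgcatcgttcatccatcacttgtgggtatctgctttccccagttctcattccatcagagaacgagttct
Ltb held a kappaB match that starts at position -87 from the start site, Tnfsf14 an AP-1 match at -160 and Tnfsf18 a PU.1 core match at -229, and these matches do not overlap another motif. The Tnf window held none of the 3 motifs in these letters. The windows of Tnfsf11 and Tnfsf15, ligand genes that fell too, are not shown and held none either. RefSeq promoters were matched for 27 of the 34 genes, with 31 windows. The kappaB consensus was in 12.9% of those windows and 8.46% of all 32851 promoters, TGANTCA in 19.4% and 7.81%, and GAGGAAGT in 3.23% and 3.20%. The 6 windows with TGANTCA belong to 5 genes, since the overlapping windows of Tnfsf13b hold the same match. Among genes that fell in passage-8 against CD45-positive cells, each motif was in 1 of 10 windows. The windows with a match were those of Ltb, Tnfsf14 and Tnfsf18, all of them shown here. A match describes the letters and shows no binding.

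The TNF receptors went separate ways. Tnfrsf1a, the widely expressed death-domain receptor for TNF, stood at 5.18 and 5.29 in passage-8 cells, 5.50 and 5.22 in CD45-negative cells, 4.98 and 5.08 in CD45-positive cells, with 3.11 and 3.40 in the left ventricle. All cell arrays were above both ventricle arrays, and passage-8 cells overlapped CD45-negative cells. Tnfrsf1a was 1.98 ± 0.22, 2.11 ± 0.22 and 1.78 ± 0.22 above the left ventricle in passage-8, CD45-negative and CD45-positive cells (log2, SE; adjusted p = 0.00123, 0.000975 and 0.00182). Among cells it did not pass, with differences of 0.20 (95% interval -0.35 to 0.75) for passage-8 and 0.33 (-0.22 to 0.88) for CD45-negative cells against CD45-positive cells. Its second probe gave the same calls against the ventricle, with log2 differences of 1.81, 2.00 and 1.66. Tnfrsf1b, the second TNF receptor, which lacks a death domain, had a level of -0.74 and -0.72 in passage-8 cells, -1.03 and 0.53 in CD45-negative cells, 2.65 and 2.44 in CD45-positive cells, with -2.95 and -3.16 in the left ventricle. The CD45-positive arrays were highest and the ventricle arrays lowest, with no overlap between either of them and any other group. Relative to CD45-positive cells, passage-8 cells were at -3.27 ± 0.50 and CD45-negative cells at -2.79 ± 0.50 (adjusted p = 0.00699 and 0.0133). All 3 cell groups were above the left ventricle, by 2.33, 2.81 and 5.60 in passage-8, CD45-negative and CD45-positive cells (adjusted p = 0.0122, 0.00602 and 0.000600). The lower level in CD45-negative cells missed the threshold without either CD45-positive array (adjusted p = 0.0868 and 0.0856), and the difference was -3.57 without CD45-negative replicate 2 and -2.01 without replicate 1. That in passage-8 cells missed it without CD45-positive replicate 1 (adjusted p = 0.0508). Against the ventricle, passage-8 cells missed it without either left-ventricle array (adjusted p = 0.0519 and 0.0650), and CD45-negative cells stood at 3.59 without their replicate 1 and 2.03 without replicate 2. Passage-8 cells, at -0.48 against CD45-negative cells, passed there without CD45-negative replicate 1, at -1.26 (adjusted p = 0.0180).

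**Figure D2:**
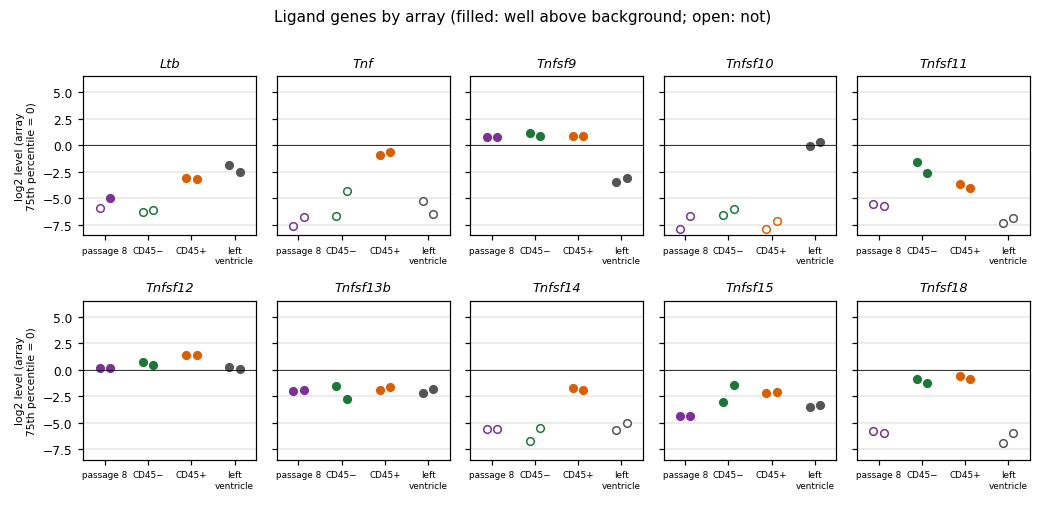
Log2 level (vertical axis, array 75th percentile = 0) of the 10 ligand genes that were tested, on the 2 arrays of each group. Filled points are well above background and open points are not. Tnf and Tnfsf14 have filled points in CD45-positive cells alone, Tnfsf10 in the left ventricle alone, and Tnfsf11 and Tnfsf18 in both primary cell groups.

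Tnfsf14 encodes LIGHT, a ligand of the lymphotoxin beta receptor and of HVEM, the product of Tnfrsf14. Its level was -5.61 and -5.57 in passage-8 cells, -6.72 and -5.53 in CD45-negative cells, -1.75 and -1.88 in CD45-positive cells, with -5.69 and -5.01 in the left ventricle. Tnfsf14 was well above background on both CD45-positive arrays and on no other array. It was at least 13.6-fold lower in passage-8 cells and at least 6.99-fold lower in CD45-negative cells than in CD45-positive cells (adjusted p = 0.00310 and 0.00336), and at least 8.86-fold higher in CD45-positive cells than in the left ventricle (adjusted p = 0.00180). Without CD45-negative replicate 1 the bound against CD45-positive cells was 6.57-fold, and without replicate 2 it was 7.44-fold. With normexp background correction the difference did not pass (adjusted p = 0.0948). The receptor gene Tnfrsf14 stood at -2.83 and -2.74 in passage-8 cells, -2.84 and -1.42 in CD45-negative cells, -2.06 and -2.58 in CD45-positive cells, with -0.99 and -0.81 in the left ventricle. The ventricle arrays were above all cell arrays, and CD45-negative cells overlapped both other cell groups. With all arrays only passage-8 cells passed against the ventricle, at -1.88 ± 0.48 (adjusted p = 0.0224), a call that was lost on leaving out any 1 passage-8 or left-ventricle array. CD45-negative cells stood at -1.23 against the ventricle and passed without their replicate 2, at -1.94 (adjusted p = 0.00649), and without replicate 1 passage-8 cells passed against them, at -1.36 (adjusted p = 0.0314). The second Tnfrsf14 probe gave -0.64 in passage-8 cells against the ventricle.

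The ligand gene of the co-stimulatory receptor GITR separated the primary cells from the passaged ones. This gene, Tnfsf18, had a level of -5.80 and -5.97 in passage-8 cells, -0.91 and -1.31 in CD45-negative cells, -0.56 and -0.84 in CD45-positive cells, with -6.96 and -5.99 in the left ventricle. Both primary cell groups were well above background on both arrays, and passage-8 cells and ventricle on none. Tnfsf18 was at least 31.5-fold lower in passage-8 than in CD45-positive cells (adjusted p = 0.000821) and at least 23.7-fold lower than in CD45-negative cells (adjusted p = 0.00180). Against the left ventricle it was at least 14.4-fold higher in CD45-negative and at least 19.1-fold higher in CD45-positive cells (adjusted p = 0.000281 and 0.000236). The primary cell groups differed by -0.41, with a 95% interval of -1.31 to 0.50 (adjusted p = 0.453). Tnfrsf18, which encodes GITR itself, stood at -2.62 and -2.54 in passage-8 cells, -2.55 and -1.18 in CD45-negative cells, -3.42 and -3.99 in CD45-positive cells, with -4.54 and -3.93 in the left ventricle. CD45-positive cells overlapped the left ventricle and lay below both other cell groups. CD45-negative cells were 1.84 ± 0.51 above CD45-positive cells (adjusted p = 0.0454). That call held in 7 of 19 alternatives and was lost without either passage-8 array (adjusted p = 0.0724), either CD45-positive array (adjusted p = 0.125 and 0.236) or CD45-negative replicate 2 (log2 difference 1.15, adjusted p = 0.0796). Against the left ventricle Tnfrsf18 was 1.66 ± 0.51 higher in passage-8 and 2.37 ± 0.51 higher in CD45-negative cells (adjusted p = 0.0399 and 0.0116). The passage-8 call held in 10 of 19 alternatives, and was lost with normexp background correction (0.55, adjusted p = 0.245), without any 1 passage-8 or left-ventricle array (adjusted p = 0.0785 to 0.172) and without either CD45-positive array (adjusted p = 0.0633). The CD45-negative value was 3.06 without replicate 1 and 1.68 without replicate 2, and missed the threshold without left-ventricle replicate 1 (adjusted p = 0.0668).

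Tnfsf9 encodes 4-1BB ligand, the partner of the receptor gene Tnfrsf9. It showed a level of 0.78 and 0.81 in passage-8 cells, 1.14 and 0.85 in CD45-negative cells, 0.85 and 0.82 in CD45-positive cells, with -3.46 and -3.14 in the left ventricle. All 6 cell arrays lay within a narrow band, far above both ventricle arrays. The differences to the ventricle were 4.10, 4.29 and 4.13, each ± 0.22, in passage-8, CD45-negative and CD45-positive cells (adjusted p = 0.000158, 0.000147 and 0.000167), and all 3 calls held in each of 19 alternatives. Among cells no difference passed, with 95% intervals of -0.59 to 0.52 for passage-8 against CD45-positive cells and -0.39 to 0.71 for CD45-negative against CD45-positive cells. Tnfrsf9 itself was between 2.32 and 4.02 on all 8 arrays and passed only in CD45-positive cells against the left ventricle, at 1.24 ± 0.35 (adjusted p = 0.0320), a call kept in 12 of 19 alternatives and lost without either passage-8 array (adjusted p = 0.0537), either CD45-positive array (adjusted p = 0.145 and 0.112) or left-ventricle replicate 2 (0.87, adjusted p = 0.131). In CD45-negative against CD45-positive cells Tnfrsf9 stood at -1.15 (adjusted p = 0.0593) and passed without CD45-negative replicate 2, at -1.48 (adjusted p = 0.0379). Tnfrsf4, which encodes the T cell receptor OX40, ranged from -2.10 to 0.13 over the arrays. Among cells it did not pass, except in passage-8 against CD45-negative cells without CD45-negative replicate 1, at -1.21 (adjusted p = 0.0189). It was 1.52 ± 0.42 higher in CD45-negative and 1.38 ± 0.42 higher in CD45-positive cells than in the left ventricle (adjusted p = 0.0279 and 0.0407). Without CD45-negative replicate 1 the CD45-negative value was 2.15, and without replicate 2 it was 0.89, too small to pass. The CD45-negative call was lost too without either CD45-positive array (adjusted p = 0.0549) or either left-ventricle array (adjusted p = 0.0879 and 0.116). The CD45-positive call was lost without any 1 passage-8, CD45-positive or left-ventricle array (adjusted p = 0.0625 to 0.167).

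Tnfsf15, which encodes TL1A, and its death-domain receptor gene Tnfrsf25 differed in opposite directions between passage-8 and primary cells. Tnfsf15 had a level of -4.36 on both passage-8 arrays, -3.02 and -1.44 in CD45-negative cells, -2.17 and -2.12 in CD45-positive cells, with -3.57 and -3.34 in the left ventricle. Passage-8 cells were lowest, and CD45-negative replicate 2 was the highest array. The differences of passage-8 cells were -2.21 ± 0.50 against CD45-positive and -2.13 ± 0.50 against CD45-negative cells (adjusted p = 0.0241 and 0.0418). The first was lost without any 1 array of its groups (adjusted p = 0.0734 to 0.123). The second held in 10 of 19 alternatives. It was lost without either passage-8 array (adjusted p = 0.130 and 0.167), either CD45-positive array (adjusted p = 0.0918) or either left-ventricle array (adjusted p = 0.0741), with no filter on dim probes (adjusted p = 0.0593) and with only the groups compared fitted (adjusted p = 0.179), and was -2.91 without CD45-negative replicate 1 and -1.34 without replicate 2. CD45-negative cells passed against the ventricle without their replicate 1, at 2.01 (adjusted p = 0.00219). Tnfrsf25 stood at 1.82 and 1.74 in passage-8 cells, 0.28 and -0.23 in CD45-negative cells, -0.55 and -0.45 in CD45-positive cells, with 0.90 and 1.47 in the left ventricle. Passage-8 cells lay above every other array. Their difference to CD45-positive cells was 2.28 ± 0.29 (adjusted p = 0.00401), which held in all 19 alternatives, and that to CD45-negative cells was 1.75 ± 0.29 (adjusted p = 0.0158), which was lost without either passage-8 array (adjusted p = 0.0844 and 0.0895). Both primary cell groups were below the left ventricle, at -1.16 for CD45-negative and -1.68 for CD45-positive cells (adjusted p = 0.0207 and 0.00581), the first no longer passing without CD45-negative replicate 2 (-0.90) or left-ventricle replicate 2 (-0.87), and passage-8 cells differed from it by 0.60 (95% interval -0.12 to 1.31).

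**Figure D3:**
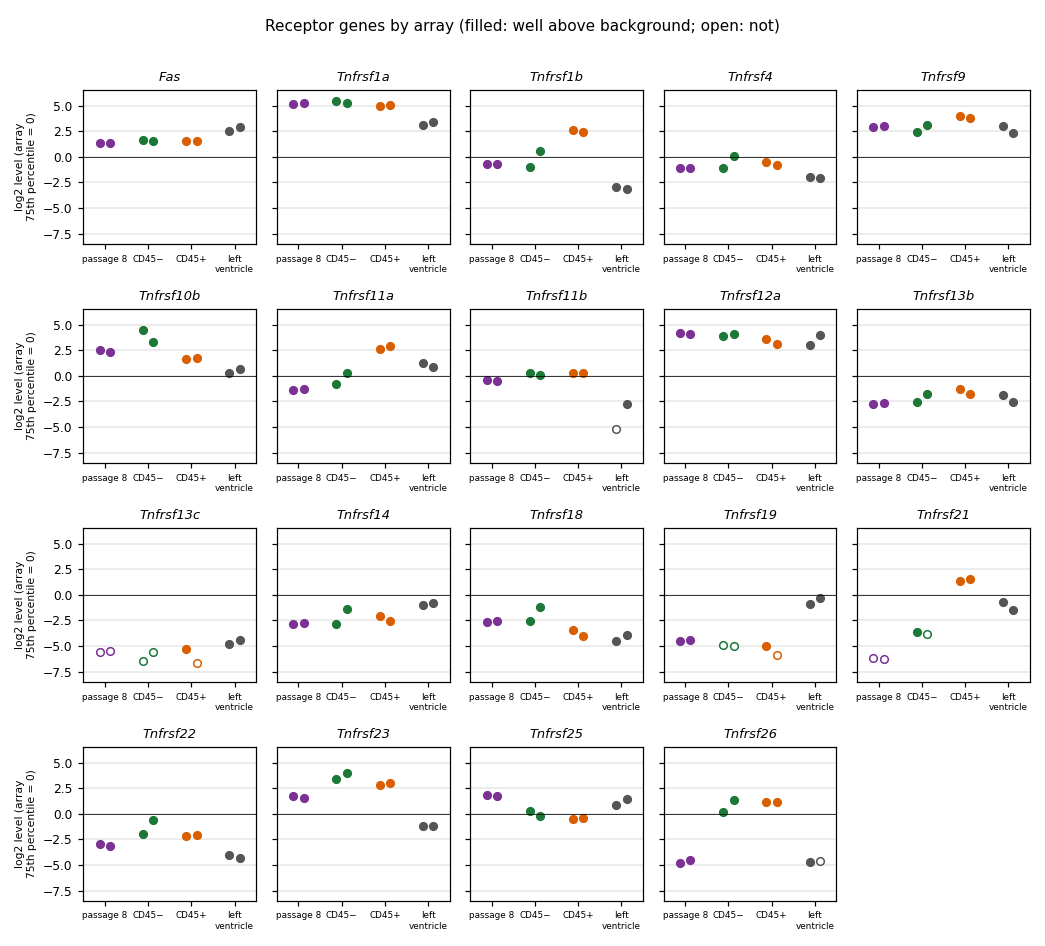
Log2 level (vertical axis, array 75th percentile = 0) of the 19 receptor genes that were tested, on the 2 arrays of each group. Filled points are well above background and open points are not. Tnfrsf1b, Tnfrsf11a and Tnfrsf21 are highest in CD45-positive cells, Tnfrsf25 in passage-8 cells and Tnfrsf19 in the left ventricle, and Tnfrsf26 lies between 0.17 and 1.36 in the primary cell groups and between -4.77 and -4.47 in passage-8 cells and ventricle.

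The RANK axis was split between the primary cell groups, the ligand higher in CD45-negative cells and the receptor higher in CD45-positive cells. Tnfsf11 encodes RANK ligand, the inducer of osteoclast differentiation. Its level was -5.60 and -5.71 in passage-8 cells, -1.64 and -2.63 in CD45-negative cells, -3.65 and -4.00 in CD45-positive cells, with -7.33 and -6.87 in the left ventricle. CD45-negative cells were highest, CD45-positive cells next, and passage-8 cells and ventricle were not well above background on any array. Tnfsf11 was at least 3.37-fold lower in passage-8 than in CD45-positive cells (adjusted p = 0.0189) and at least 10.9-fold lower than in CD45-negative cells (adjusted p = 0.00479). CD45-negative cells were 1.69 ± 0.38 above CD45-positive cells (adjusted p = 0.0263). The call against CD45-positive cells was lost without either CD45-positive array in CD45-negative cells (adjusted p = 0.102 and 0.164) and without any 1 array of its groups in passage-8 cells (adjusted p = 0.0600 to 0.113). Against the left ventricle Tnfsf11 was at least 7.11-fold higher in CD45-negative and at least 2.20-fold higher in CD45-positive cells (adjusted p = 0.000385 and 0.00144). Without CD45-negative replicate 1 the bound of passage-8 against CD45-negative cells was 7.74-fold, and without replicate 2 it was 15.4-fold. With normexp background correction passage-8 against CD45-positive cells fell short of the size required, and CD45-positive cells against the ventricle did not pass (adjusted p = 0.122). CD45-negative against CD45-positive cells stood at 1.43 after quantile normalization (adjusted p = 0.162) and 1.16 in the authors' deposited table (adjusted p = 0.0518), and did not pass in either.

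Tnfrsf11a, which encodes RANK, stood at -1.35 and -1.32 in passage-8 cells, -0.80 and 0.26 in CD45-negative cells, 2.65 and 2.89 in CD45-positive cells, with 1.29 and 0.85 in the left ventricle. The 4 groups did not overlap, in the order CD45-positive, left ventricle, CD45-negative and passage 8, but passage-8 and CD45-negative cells did not differ by the test (-1.07 ± 0.39, adjusted p = 0.122). Passage-8 cells were -4.10 ± 0.39 and CD45-negative cells -3.04 ± 0.39 relative to CD45-positive cells (adjusted p = 0.00170 and 0.00532), the second lost without CD45-positive replicate 2 (adjusted p = 0.0569). Without CD45-negative replicate 1 passage-8 cells passed against CD45-negative cells too, at -1.60 (adjusted p = 0.0190). Relative to the left ventricle, RANK was lower in passage-8 cells (-2.40, adjusted p = 0.00438) and CD45-negative cells (-1.33, adjusted p = 0.0338) and higher in CD45-positive cells (1.70, adjusted p = 0.0157). The CD45-negative value did not pass on leaving out any 1 array other than CD45-negative replicate 2, and was -0.80 without CD45-negative replicate 1. The CD45-positive call was lost without either CD45-positive array (adjusted p = 0.0622 and 0.0939) or left-ventricle replicate 2 (adjusted p = 0.0832). Tnfrsf11b encodes osteoprotegerin, the soluble decoy for RANK ligand, and had levels of -0.36 and -0.46 in passage-8 cells, 0.29 and 0.11 in CD45-negative cells, 0.24 and 0.32 in CD45-positive cells, with -5.16 and -2.77 in the left ventricle. The primary cell groups overlapped, and 1 of 2 ventricle arrays was well above background. Osteoprotegerin was 3.56 ± 0.72, 4.17 ± 0.72 and 4.25 ± 0.72 above the ventricle in passage-8, CD45-negative and CD45-positive cells (adjusted p = 0.0101, 0.00548 and 0.00552). Without left-ventricle replicate 1 they were 2.36, 2.98 and 3.05, and without replicate 2 they were 4.75, 5.37 and 5.44. No difference among cells passed (-0.69 for passage-8 and -0.07 for CD45-negative against CD45-positive cells).

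The TRAIL gene was well above background in the ventricle alone, and its receptor gene was highest in CD45-negative cells. Tnfsf10 encodes TRAIL, which triggers apoptosis through the receptor encoded by Tnfrsf10b. Its level was -7.91 and -6.67 in passage-8 cells, -6.55 and -6.06 in CD45-negative cells, -7.95 and -7.12 in CD45-positive cells, with -0.08 and 0.27 in the left ventricle. None of the 6 cell arrays was well above background, and both ventricle arrays were. TRAIL was at least 55.8-fold, 26.2-fold and 44.5-fold lower in passage-8, CD45-negative and CD45-positive cells than in the left ventricle (adjusted p = 0.000269, 0.000410 and 0.000262). The passage-8 bound was 50.2-fold without its replicate 1 and 62.0-fold without its replicate 2. The gene for its receptor, Tnfrsf10b, stood at 2.55 and 2.35 in passage-8 cells, 4.48 and 3.30 in CD45-negative cells, 1.66 and 1.76 in CD45-positive cells, with 0.29 and 0.62 in the left ventricle. The 4 groups did not overlap, with CD45-negative cells highest. CD45-negative cells were 2.18 ± 0.41 above CD45-positive cells (adjusted p = 0.0153), and passage-8 cells were 0.74 ± 0.41 above them without passing (adjusted p = 0.236). Passage-8 cells stood at -1.44 against CD45-negative cells (adjusted p = 0.0666) and passed without CD45-negative replicate 2, at -2.04 (adjusted p = 0.0103). The difference of CD45-negative to CD45-positive cells was 2.77 without CD45-negative replicate 2 and 1.59 without replicate 1, and missed the threshold without either CD45-positive array (adjusted p = 0.0948 and 0.0973). Against the left ventricle the receptor was higher in passage-8 cells (1.99, adjusted p = 0.0104) and CD45-negative cells (3.44, adjusted p = 0.00143), while CD45-positive cells stood at 1.26 (adjusted p = 0.0502). The passage-8 call was lost without left-ventricle replicate 1 (adjusted p = 0.0589), and CD45-positive cells passed without either CD45-negative array (adjusted p = 0.00597). The CD45-negative value was 2.84 without replicate 1 and 4.03 without replicate 2.

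Tnfrsf22 and Tnfrsf23 encode decoy receptors for TRAIL in the mouse, and Tnfrsf26 is their neighbour. The probes used for them lay within chr7:150793990-150851773 (build mm9), with 29.4 kb between Tnfrsf26 and Tnfrsf22 and 28.3 kb between Tnfrsf22 and Tnfrsf23. Tnfrsf23 had a level of 1.75 and 1.57 in passage-8 cells, 3.36 and 4.02 in CD45-negative cells, 2.76 and 2.99 in CD45-positive cells, with -1.16 and -1.18 in the left ventricle. No 2 groups overlapped. Passage-8 cells fell by 1.22 against CD45-positive and by 2.03 against CD45-negative cells (SE 0.28 each; adjusted p = 0.0252 and 0.00937), yet stayed 2.83 above the left ventricle (adjusted p = 0.000788). The call against CD45-positive cells was lost without any 1 array of its groups (adjusted p = 0.0793 to 0.156), and that against CD45-negative cells without either passage-8 array (adjusted p = 0.0550 and 0.0669). CD45-negative against CD45-positive cells stood at 0.82 (adjusted p = 0.0814) and passed without CD45-negative replicate 1, at 1.15 (adjusted p = 0.0181). CD45-negative and CD45-positive cells were 4.86 and 4.05 above the ventricle (adjusted p = 0.000187 and 0.000287). Tnfrsf22 stood at -2.95 and -3.13 in passage-8 cells, -2.01 and -0.64 in CD45-negative cells, -2.16 and -2.07 in CD45-positive cells, with -4.05 and -4.35 in the left ventricle. Its order of groups was that of Tnfrsf23, but among cells none of its differences passed, with -1.71 for passage-8 against CD45-negative cells (adjusted p = 0.0558). Without CD45-negative replicate 1 that difference was -2.39 (adjusted p = 0.00546), and without replicate 2 it was -1.03 (adjusted p = 0.0391), with the remaining array assumed to vary like the other groups. CD45-negative against CD45-positive cells, at 0.79, passed without CD45-negative replicate 1 (1.48, adjusted p = 0.0126). Against the ventricle Tnfrsf22 passed in CD45-negative (2.87, adjusted p = 0.00386) and CD45-positive cells (2.08, adjusted p = 0.0132). The CD45-negative value was 3.56 without replicate 1 and 2.19 without replicate 2. The CD45-positive call was lost with normexp background correction (0.83), without either CD45-positive array (adjusted p = 0.0628 and 0.0750) and without left-ventricle replicate 2 (adjusted p = 0.0725), and passage-8 cells, at 1.16 (adjusted p = 0.0821), passed without either CD45-negative array (adjusted p = 0.00636). Tnfrsf26 showed the widest contrast of the 3 among cells, with -4.77 and -4.47 in passage-8 cells, 0.17 and 1.36 in CD45-negative cells, 1.16 on both CD45-positive arrays and -4.69 and -4.60 in the left ventricle. The primary cells overlapped each other and stood far above passage-8 cells and ventricle, which also overlapped. Its differences in passage-8 cells were -5.78 ± 0.40 against CD45-positive and -5.39 ± 0.40 against CD45-negative cells (adjusted p = 0.000783 and 0.00167). The second was -5.98 without CD45-negative replicate 1 and -4.79 without replicate 2. CD45-negative and CD45-positive cells were 5.42 and 5.81 above the ventricle (adjusted p = 0.000349 and 0.000294), the CD45-negative value being 6.01 without replicate 1 and 4.82 without replicate 2, while passage-8 cells differed from it by 0.03 (95% interval -0.96 to 1.02). The second probes of Tnfrsf22 and Tnfrsf23, that of Tnfrsf23 at chr7:150865851-150865910, gave the same directions in all 3 cell comparisons without passing in any, with Tnfrsf23 at -1.23 and -2.31 in passage-8 against CD45-positive and CD45-negative cells (adjusted p = 0.198 and 0.0564). No 2 superfamily probes of different genes shared a run of more than 12 bases.

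Fas, the receptor of Fas ligand, stood at 1.35 and 1.40 in passage-8 cells, 1.65 and 1.58 in CD45-negative cells, 1.60 and 1.59 in CD45-positive cells, with 2.49 and 2.89 in the left ventricle. All cell arrays were below both ventricle arrays, and the primary cell groups overlapped. Fas fell by 1.32, 1.07 and 1.09 against the ventricle in passage-8, CD45-negative and CD45-positive cells (SE 0.22 each; adjusted p = 0.00468, 0.00963 and 0.00968). Without left-ventricle replicate 2 the 2 primary groups stood at -0.88 and -0.90 and no longer passed, and CD45-positive cells also missed the threshold without either of their own arrays (adjusted p = 0.0647 and 0.0699). Tnfrsf21 encodes death receptor 6, and had levels of -6.19 and -6.32 in passage-8 cells, -3.65 and -3.86 in CD45-negative cells, 1.34 and 1.55 in CD45-positive cells, with -0.74 and -1.48 in the left ventricle. The 4 groups did not overlap, and no passage-8 array and 1 CD45-negative array were well above background. It was at least 142-fold lower in passage-8 than in CD45-positive cells (adjusted p = 0.000406). By the probes used, this was the largest bound among the superfamily genes in the 3 comparisons of cells. CD45-negative cells were at -5.20 ± 0.30 relative to CD45-positive cells (adjusted p = 0.00208). Against the left ventricle death receptor 6 was at least 24.2-fold lower in passage-8 cells, at -2.64 on the log2 scale in CD45-negative cells and 2.56 higher in CD45-positive cells (adjusted p = 0.000183, 0.00122 and 0.00144).

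**Figure D4:**
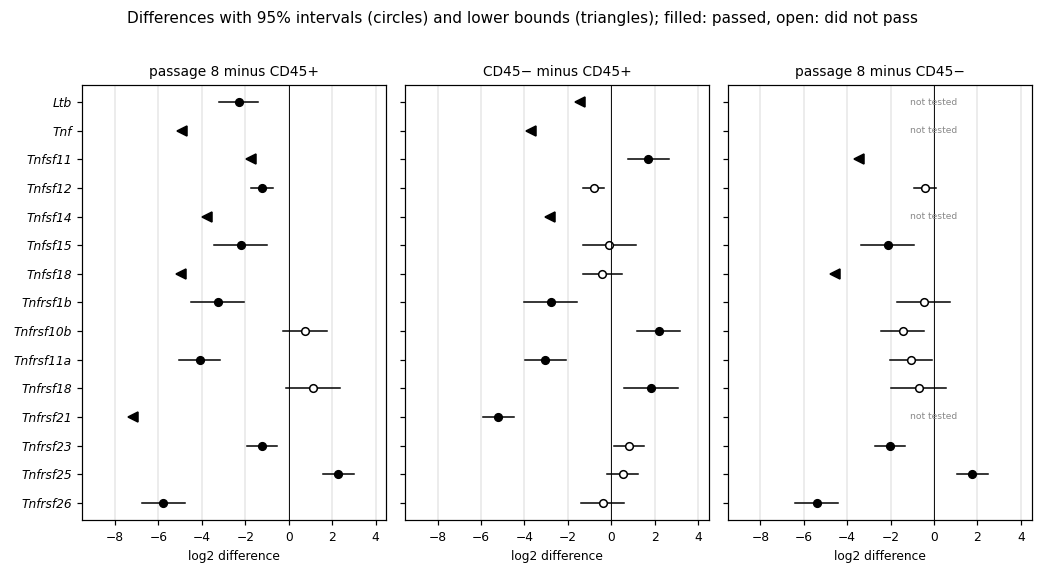
Log2 difference (horizontal axis) for the 15 superfamily genes that passed in at least 1 of the 3 comparisons of cells, ligands above receptors. Circles are differences with 95% intervals from limma, triangles are lower bounds for genes well above background in 1 of the groups alone, filled symbols passed, open ones did not, and genes that did not enter a test are marked. In passage-8 minus CD45-positive cells, 12 genes lie left of 0 and pass, 7 as circles, from -5.78 for Tnfrsf26 to -1.22 for Tnfrsf23, and 5 as triangles, and Tnfrsf25 passes at 2.28.

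The TWEAK pair differed less. Tnfsf12, which encodes TWEAK, stood at 0.16 and 0.12 in passage-8 cells, 0.68 and 0.43 in CD45-negative cells, 1.34 and 1.40 in CD45-positive cells, with 0.22 and 0.10 in the left ventricle. CD45-positive cells were highest and passage-8 cells overlapped the ventricle. Its difference in passage-8 against CD45-positive cells was -1.23 ± 0.20 (adjusted p = 0.00871), lost without any 1 array of these groups (adjusted p = 0.0503 to 0.0786), and CD45-positive cells were 1.21 above the ventricle (adjusted p = 0.00516). CD45-negative cells were at -0.82 against CD45-positive cells, under the size required, but the second probe of Tnfsf12 gave -2.45 there and passed (adjusted p = 0.00999). In passage-8 against CD45-positive cells that probe gave -1.09 and did not pass (adjusted p = 0.0953). In passage-8 against CD45-negative cells the 2 probes differed in sign, at 1.36 on the second and -0.41 on the probe used. Tnfrsf12a, the gene of the TWEAK receptor Fn14, lay between 3.04 and 4.15 on all 8 arrays and passed in no comparison. Tnfsf13b, which encodes the B cell survival factor BAFF, lay between -2.73 and -1.54 and also passed in none. Tnfrsf13c, a receptor of BAFF, was well above background on 3 of 8 arrays. Tnfrsf19, which encodes TROY, stood at -4.54 and -4.44 in passage-8 cells, -4.90 and -4.99 in CD45-negative cells, -5.01 and -5.84 in CD45-positive cells, with -0.86 and -0.30 in the left ventricle. The ventricle arrays were far above all cell arrays. TROY was at -3.91 and -4.85 in passage-8 and CD45-positive cells relative to the ventricle (adjusted p = 0.000569 and 0.000324), and at least 16.4-fold lower in CD45-negative cells (adjusted p = 0.000425). The second Tnfrsf19 probe gave 0.47 in that last comparison (adjusted p = 0.780), with -5.52 and -2.04 on the 2 CD45-negative arrays and -4.58 and -3.92 in the ventricle.

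For 2 receptor genes the levels depended on the probe. Tnfrsf13b encodes TACI, a receptor of BAFF and APRIL on B cells, and the probe with the highest mean lay between -2.71 and -1.27 on all 8 arrays. Another of its probes, A_55_P1981964 at chr11:60962770-60962829 (build mm9, plus strand), stood at -7.74 and -6.83 in passage-8 cells, -5.94 and -3.40 in CD45-negative cells, 1.51 and 1.44 in CD45-positive cells, with -2.16 and -3.40 in the left ventricle. On that probe CD45-positive cells were far above the rest. Fitted on its own, in a test chosen after seeing the data and adjusted over all probes, it was at least 145-fold lower in passage-8 cells, where neither array was well above background (limma adjusted p = 0.00212), and at -6.14 ± 0.88 in CD45-negative cells, where 1 of 2 arrays was (adjusted p = 0.00757), both against CD45-positive cells. The other Tnfrsf13b probe, A_55_P2169559, ran the other way between passage-8 and CD45-positive cells, at 1.12 ± 0.31 (adjusted p = 0.0458). For Tnfrsf9 the probe used had the levels given above, while the other, A_55_P2082180, stood at -5.38 and -5.96 in passage-8 cells, -5.94 and -0.63 in CD45-negative cells, -1.94 and -2.01 in CD45-positive cells, with -6.38 and -6.78 in the left ventricle. Only CD45-positive cells and CD45-negative replicate 2 were well above background on it. The 3' end of each probe, bases 31 to 60, is shown to let the probes be told apart, with a repeat of 2 bases in capitals.
Tnfrsf13b A_55_P1981964: atgttcccttaaattgtttttattagtata
Tnfrsf13b A_55_P1981972 (used): tccttcctcaggcgtagaggagagccacta
Tnfrsf13b A_55_P2169559: ctcagcagtgtgcccacttctgtgagaaaa
Tnfrsf9 A_55_P2029061 (used): taaaatcaGTGTGTGTGTGTGTGTGTGTGT
Tnfrsf9 A_55_P2082180: taacatatttgtctttaccttttttaaatc
The Tnfrsf9 probe used, at chr4:150319582-150319641, ends in a GT repeat of 22 bases, and it was the only one of the 44 probes with a 2-base repeat of at least 12 bases. The part of this repeat in its signal was not tested. The Tnfrsf13b probes lay at chr11:60954823-60954882 (A_55_P2169559) and chr11:60960405-60960464 (A_55_P1981972). Whether any of them lies in an exon, an intron or a UTR was not analysed here.

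**Figure D5:**
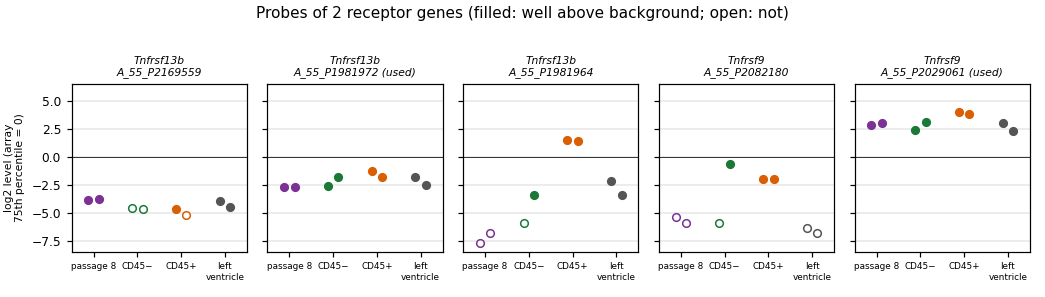
Log2 level (vertical axis, array 75th percentile = 0) on each array for the 3 probes of Tnfrsf13b and the 2 probes of Tnfrsf9. Filled points are well above background and open points are not. Tnfrsf13b probe A_55_P1981964 reads 1.51 and 1.44 in CD45-positive cells and -2.16 or less elsewhere, while the probe used for the gene stays between -2.71 and -1.27.

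By the probes used, 16 of the 34 genes lay in 7 groups of genes within 200 kb of each other, and neighbours could differ in where they were measured. On chromosome 17, at chr17:57247062-57329251 (build mm9), Tnfsf9 was level among the cells while Tnfsf14, 82.1 kb away, was measured in CD45-positive cells alone. On chromosome 1, at chr1:163348095-163435411, Tnfsf18 was measured in both primary cell groups and Tnfsf4, the OX40 ligand gene 87.3 kb away, on no array. On chromosome 4, Tnfrsf1b passed in 5 comparisons and Tnfrsf8, 80.2 kb away, was on no array well above background. Neighbours could also go together. Tnfrsf22, Tnfrsf23 and Tnfrsf26 were all higher in both primary cell groups than in the ventricle. Ltb and Tnf were both lower in passage-8 and CD45-negative cells than in CD45-positive cells. The share of all genes with a neighbour this close was not computed.

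Other family genes carry names outside the rule, and the adaptor gene Edaradd was listed with them. Of 12 such genes, 7 were tested in CD45-negative against CD45-positive cells, with Eda higher and Cd40, Ngfr and Edar lower, and 7 in passage-8 against CD45-positive cells, with Cd40, Ngfr and Edar lower. These 4 and 3 of 7 stand beside 21.8% and 23.5% of all genes. Cd40, the co-stimulatory receptor of macrophages and B cells, stood at -7.21 and -6.96 in passage-8 cells, -3.26 and -1.71 in CD45-negative cells, 0.27 and 0.29 in CD45-positive cells, with -1.58 and -1.74 in the left ventricle. CD45-positive cells were highest and no passage-8 array was well above background. It was at least 63.5-fold lower in passage-8 cells (adjusted p = 0.000701) and at -2.77 in CD45-negative cells (adjusted p = 0.0131), both against CD45-positive cells. Ngfr, the nerve growth factor receptor p75, was at -4.35 in passage-8 cells and -2.03 in CD45-negative cells against CD45-positive cells (adjusted p = 0.000994 and 0.0103). Eda, the ectodysplasin ligand, was 1.85 higher in CD45-negative cells than in the CD45-positive ones (adjusted p = 0.0252), and its receptor gene Edar was lower (adjusted p = 0.0373) but not well above background in CD45-negative cells, which leaves no bound on its fold.

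Downstream of the receptors, adaptor genes, NF-kappaB genes and target genes were counted as lists. Of 26 adaptor, kinase and caspase genes next to the receptors, all tested, 3 passed in passage-8 against CD45-positive cells, with Traf4 higher (2.46) and Birc3 and Traf1 lower (-1.14 and -3.30). In CD45-negative against CD45-positive cells 5 passed, with Traf4, Ripk3 and Mlkl higher (2.44, 1.24 and 1.03) and Bid and Traf1 lower (-2.09 and -2.02). These are 11.5% and 19.2% of the list, beside 23.5% and 21.8% of all genes, the second close to that share. Of 15 NF-kappaB subunits, inhibitors and kinases, Tank alone passed in passage-8 against CD45-positive cells (-1.16, adjusted p = 0.0396). That is 6.67% of the list, beside 23.5% of all genes. None passed by limma in CD45-negative against CD45-positive cells, where 4 had an unadjusted p under 0.05 and 21.8% of all genes passed. Of 22 TNF-induced NF-kappaB target genes tested, 11 fell and 1 rose in passage-8 against CD45-positive cells, with Il1b at least 48.0-fold and Cxcl2 at least 21.5-fold lower, Ccl2 at -3.20, Traf1 at -3.30 and Vcam1, a vascular adhesion molecule, 2.18 higher. This is 54.5% beside 23.5% of all genes, with a median of -1.17. In CD45-negative against CD45-positive cells 6 fell and 1 rose, with Il1b, the gene of interleukin-1 beta, at -5.03, the chemokine gene Cxcl2 at -2.71 and Vcam1 at 1.33. That is 31.8% of those tested, beside 21.8% of all genes. Il1b, Cxcl2 and Ccl2 are also genes that macrophages are known for, and the macrophage markers given above moved with them, so the part of cell type in these counts was not tested. Against the left ventricle most target genes were higher in each cell group. In passage-8 cells 13 of 20 were higher and 2 lower, and in CD45-negative cells 13 of 20 and 1. In CD45-positive cells it was 17 of 22 and 1. Passing genes made up 75%, 70% and 81.8%, beside 39.2%, 39.5% and 38.1% of all genes. The medians were 1.92, 2.01 and 2.95, and the cause was not tested.

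Genes known to act downstream of RANK in osteoclasts were counted as a list. Of 10 tested, 8 fell in passage-8 and 6 fell in CD45-negative cells against CD45-positive cells, beside 10.9% and 10.5% lower among all genes. The medians were -4.16 and -2.65, or -3.88 and -2.18 with genes below background set at their bound. Relative to the ventricle the counts were mixed. In passage-8 cells, where Tnfrsf11a was at -2.40, 1 of 7 tested rose and 2 fell, with a median of -0.51. In CD45-negative cells, where Tnfrsf11a was at -1.33, 3 of 7 rose and the others did not pass, with a median of 0.65. In CD45-positive cells, where Tnfrsf11a was at 1.70, 7 of 10 rose, with a median of 3.71, or 3.58 with bounds. Passing genes made up 42.9%, 42.9% and 70% of those tested, beside 39.2%, 39.5% and 38.1% of all genes. The shares in passage-8 and CD45-negative cells are thus near those of all genes. A link of these counts to the level of Tnfrsf11a was not tested. Acp5, which encodes tartrate-resistant acid phosphatase, was at -6.89 in passage-8 and -2.86 in CD45-negative cells, and Ctsk, which encodes cathepsin K, at -4.67 and -2.45. Mmp9 was at least 58.2-fold lower in passage-8 and at least 26.6-fold lower in CD45-negative cells. Csf1r is in this list and in the macrophage list, and macrophages also express several of these genes. All 10 macrophage markers tested were lower in both groups than in CD45-positive cells, and their part in the osteoclast list was not tested. Of 6 shedding and processing genes tested, 5 passed in passage-8 against CD45-positive cells, beside 23.5% of all genes. Adam17, which encodes the protease that releases TNF from the membrane, was at -1.75, its partner gene Rhbdf2 at -1.99 and Furin at -1.12, while Rhbdf1 and Timp3, an inhibitor of Adam17, were 1.71 and 1.43 higher. In CD45-negative against CD45-positive cells Rhbdf1 alone passed (1.77, adjusted p = 0.00410), 16.7% of those tested beside 21.8% of all genes.

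Against the left ventricle, more superfamily genes passed in each cell group than among cells. In passage-8 cells 7 were higher and 7 lower of 25 tested, beside 39.2% of all genes, 20.3% higher and 18.9% lower. CD45-negative cells had 12 higher and 7 lower of 27, beside 39.5%, 20.3% higher and 19.2% lower. CD45-positive cells had 16 higher and 4 lower of 29, beside 38.1%, 18.3% higher and 19.8% lower. Of these, 2 lower in passage-8 cells, 3 lower and 2 higher in CD45-negative cells, and 1 lower and 4 higher in CD45-positive cells were not well above background in 1 of the groups compared. Tnfrsf11b, Tnfrsf1a, Tnfrsf1b, Tnfrsf23 and Tnfsf9 rose and Fas, Tnfrsf19 and Tnfsf10 fell in all 3 cell groups, which share the same 2 ventricle arrays. All 6 cardiomyocyte markers tested were lower in each cell group than in the ventricle. Of 6 endothelial markers, 5 were lower in passage-8, 5 in CD45-negative and 4 in CD45-positive cells, with a summed level of 2.76 to 2.78, 3.75 to 4.36 and 3.52 to 3.74 in these groups, against 5.40 to 5.66 in the ventricle. Of 4 mast cell markers tested, 3 were lower in passage-8, 3 in CD45-negative and 4 in CD45-positive cells. Of 7 fibroblast markers, 3 were higher in passage-8, 6 in CD45-negative and 4 in CD45-positive cells. Going the other way, 1 fibroblast marker fell in the passage-8 group and 1 in the CD45-positive group, but none in the CD45-negative group. The part of these cell types in the differences to the ventricle, TRAIL and TROY included, was not tested.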

How the data were processed

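RNA of 8 samples was hybridised to 1-colour Agilent mouse arrays on 1 slide with 1 scan, from 200 ng of total RNA labelled with Cy3, per the labels' protocols. Agilent Feature Extraction 10.7 is named in the submitters' processing notes, and the deposited scanner files hold its spot intensity. Per the file headers, the intensity used had its background subtracted and a spatial trend removed on each array. The authors' deposited value table is in log2 units with column medians from 6.087 to 6.094, and how its arrays were normalized was not stated in the material at hand. It was used as an alternative.

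The 3671 control spots and outlier spots (167 to 248 per array) were left out, no spot was saturated, and repeated spots were averaged. Each value is this signal in log2 units after subtracting the array's 75th percentile, whose signal ranged from 425.9 to 976.5. Whether a spot is well above background is a flag in the files, and a repeated probe took the flag of the majority of its spots or of equal numbers. Of a gene's probes, the one of highest average level was used. Accessions of 27235 probes matched a RefSeq gene table, which updated 2838 symbols, and superfamily genes kept the names in the files. limma 3.58.1 (R 4.3.3) fitted 1 mean per group on all 8 arrays, with 4 residual degrees of freedom. Exact permutation tests are not given, since 2 arrays against 2 allow no p below 0.333. Folds given as at least a value take the mean of the bright group over that of the dim group, with each dim array set no lower than the dimmest probe called well above background there. In simulated data modelled on the comparison of CD45-negative with CD45-positive cells, with 21640 genes, 58 of 100 genes changed by 2 and 83 of 100 changed by 4 on the log2 scale passed, and 3 unchanged genes did. The number of arrays limits the precision.

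The genes, lists and alternatives were chosen with earlier results of these data known. Values per array are given for genes passing in at least 1 comparison of cells and for TNF, Fas, TRAIL and RANK ligands and receptors, and for others where a value is discussed. Of each further list up to 4 passing genes per direction are named. Promoter and probe sequences come from RefSeq (GRCm38.p6) and from the deposited files (mm9).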

Additional observations from a re-analysis of the deposited data

How the results depend on the processing

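Each count of superfamily genes passing was recomputed under 19 alternatives, and no call of a gene reversed under any of them. In CD45-negative against CD45-positive cells the count of 9 was 5 where all arrays compared had to be well above background, 4 at an adjusted p under 0.01 and 4 with only the 2 groups fitted. In passage-8 against CD45-positive cells 13 became 7 where all arrays had to be well above background. In passage-8 against CD45-negative cells 6 became 1 with only the 2 groups fitted. Against the ventricle, requiring all arrays gave 11 in place of 19 for CD45-negative and 12 in place of 20 for CD45-positive cells, and an adjusted p under 0.01 gave 9 in place of 14 for passage-8 cells. Requiring all arrays removes each gene that is below background in 1 group by construction, and the cause of the other changes was not tested. Leaving out 1 array gave 2 to 11 genes in CD45-negative against CD45-positive cells, 7 to 15 in passage-8 against CD45-positive cells and 3 to 11 in passage-8 against CD45-negative cells. Against the ventricle it gave 10 to 15 in passage-8, 15 to 19 in CD45-negative and 15 to 23 in CD45-positive cells. Where an array was left out, the lone array was assumed to vary like the other groups.

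With the replicate number as a block the counts were 13, 8 and 6 for passage-8 against CD45-positive, CD45-negative against CD45-positive and passage-8 against CD45-negative cells. Against the ventricle the block gave 14, 19 and 18 for passage-8, CD45-negative and CD45-positive cells. The labels do not pair the samples, the number equals the row on the slide, and deviations of same-numbered arrays correlated between -0.20 and 0.19. Background correction by normexp with an offset of 50 moved the median difference of all genes from -0.01 to -0.26 in passage-8 against CD45-negative cells, where 31% of its calls were higher in place of 50%, and from 0.17 to 0.33 in CD45-negative against CD45-positive cells. Against the ventricle it moved that median to 0.24 in place of 0.06 for CD45-negative and to -0.12 in place of 0.05 for passage-8 cells.

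Single probes, an alternative added after seeing the data, changed the sign of some values. Tnfrsf13b did so in passage-8 against CD45-positive cells (1.12 on probe A_55_P2169559, -1.17 on the probe used). Tnfrsf19 did so in CD45-negative cells against the ventricle (0.47 on probe A_55_P2012444, at least 16.4-fold lower on the probe used). Values under 1 in size on the probe used changed sign too. Tnfsf12 in passage-8 against CD45-negative cells was among them (1.36 on probe A_55_P1953030, -0.41 on the probe used). With 2 arrays per group, a gene that did not pass is not shown to be unchanged, and dim genes have only a bound. Bounds without 1 array and list medians with bounds were also added after seeing the data. The replicates may be technical.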
